A study of Brassica rapa with 23 samples.

Results

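In Chinese cabbage (Brassica rapa) leaf discs, 144 of the 41020 genes in the deposited tables had an flg22 response that changed sign between 30 and 180 min. They were chosen on mean log2(FPKM + 1) values, where FPKM is the number of sequenced fragments relative to gene length and to the size of the library. For 73 genes, here called up-then-down, the flg22 mean was at least 1 above the water mean at 30 min and at least 1 below it at 180 min. For 71 genes, here called down-then-up, it was at least 1 below at 30 min and at least 1 above at 180 min. A difference of 1 on this scale is about 2-fold for well expressed genes and understates the change of genes near 0. The rule also asked that water at 180 min differ from water at 30 min by less than 1.5, and it removed 2 up-then-down and 9 down-then-up genes.

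The discs came from wild-type plants of the cultivar Norang, taken from the 1st true leaf 17 days into growth under short days. They were treated with water, 100 nM flg22 or 100 μg per ml chitin for 30 or 180 min, with 3 libraries for each microbe-associated molecular pattern (MAMP) and time, 5 water libraries at 30 min and 6 at 180 min. The labels number 3 biological replicates, and each is a pool of cut discs from 1 cultivar, so that cutting is shared by all groups, water included. Several water libraries carry the same time and replicate number, and the sample number of the title is added to name them, as in 1-s7. The study divided the water libraries into controls for chitin and controls for flg22, with 1 library shared at 30 min. The labels do not name the sets, but the sample numbers run in blocks of water beside 1 MAMP, which would assign the others. The rule and the tests did not use that order, and all water libraries of a time served together. Where a MAMP is said below to overlap water or to lie outside it, the water libraries of both sets are meant.

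flg22 is a peptide of bacterial flagellin that plants bind with the receptor kinase FLS2, and chitin is a fungal cell wall polymer bound by LysM receptor kinases such as CERK1 and LYK5. In Arabidopsis both routes converge within minutes on calcium influx, a burst of reactive oxygen species and kinase cascades that start a wave of transcription. Much of that early wave is transient, and its decline is part of how the immune response is kept in bounds. None of the 144 identifiers was paired with a gene symbol in the sources used here, so the genes are given by identifier and position (B. rapa chromosome v1.5 build), with no function.

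Aligned sequence per library (coverage divided by FPKM) was 4.09 to 5.64 gigabases (median 4.72), and 30.1% to 33.2% of genes were at 0. At 30 min the median tested gene had a lower FPKM in MAMP libraries, while the FPKM summed over all genes overlapped between MAMP and water libraries. Over the 24384 genes tested, which reached an FPKM of 1 in 3 or more libraries, the median difference from water was -0.47 for flg22 and -0.46 for chitin at 30 min, 0.0057 for flg22 and -0.12 for chitin at 180 min. It was 0.27 for chitin at 180 against 30 min. After scaling each library by its median ratio to the others, these medians lay between -0.05 and 0.01. All members passed that filter. With the scaled values, 81 genes were up-then-down, 68 of them among the 73, and 29 were down-then-up, all among the 71. The early fall of the down-then-up genes is therefore given below beside the 30 min median of all tested genes, called the shift of all genes.

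The libraries of a group also differed over the members themselves. For the up-then-down genes, water library 1-s7 at 180 min lay 0.55 above its group (median over the genes), library 3-s19 lay 0.48 below, chitin replicate 1 at 180 min lay 0.37 below and flg22 replicate 1 at 180 min lay 0.32 above. The same medians over all tested genes were 0.01, 0.06, -0.04 and 0.01. For the down-then-up genes, water library 3-s19 at 180 min lay 0.36 above its group, and at 30 min libraries 3-s17 and 3-s21 lay 0.35 above and 0.35 below. Over all tested genes these libraries lay 0.06 above, 0.12 above and 0.16 below, so part of the displacement was shared by the whole library. It also went with the order of the sample numbers. At 30 min 2-s9 and 3-s17, numbered beside flg22, lay at 0.10 and 0.35, and 2-s13 and 3-s21, beside chitin, at -0.19 and -0.35. At 180 min those beside flg22 lay at 0.03, -0.0016 and 0.36, and those beside chitin at -0.04, -0.11 and -0.18. For the up-then-down genes the sets overlapped at both times. Without 1-s7 the rule gave 60 up-then-down genes, and without 3-s19 it gave 81. Pooling the sets carries any such offset into the differences from water and into the membership. The part of these libraries and sets in single genes was not tested.

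**Figure D1:**
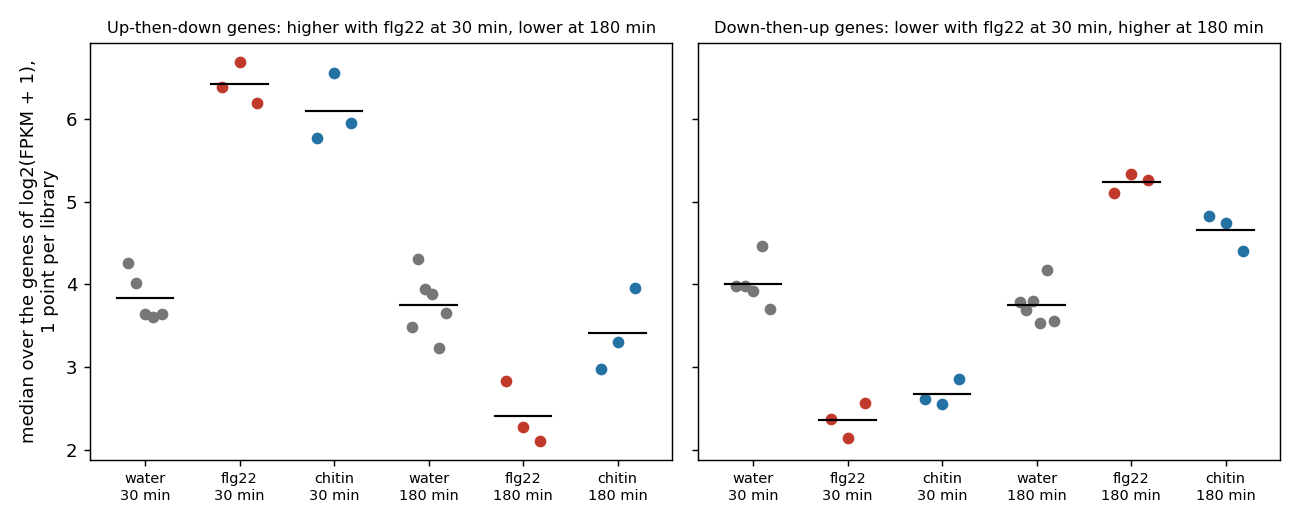
Median log2(FPKM + 1) over the 73 up-then-down genes (left) and the 71 down-then-up genes (right), 1 point per library, with a line at the mean of each of the 6 conditions. The flg22 positions chose the genes, whereas the 6 chitin libraries did not enter the choice: in the left panel chitin lies at 5.76 to 6.56 at 30 min and at 2.98 to 3.95 at 180 min, within or below the water range of 3.23 to 4.31.

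In the up-then-down genes the flg22 difference from water, which chose them, had a median of 2.58 at 30 min (range 1.03 to 7.38) and -1.36 at 180 min (range -2.59 to -1.001). A gene was called when its adjusted p from limma was under 0.05 and its difference at least 1. By that description 71 of the 73 were called higher at 30 min, where 9.55% of all tested genes were, and 65 lower at 180 min, where 8.96% were. Nothing is read from these counts, since the rule used the same contrasts. The water difference between the times, which the rule held under 1.5, had a median of -0.03 (range -0.93 to 1.25).

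Bra036278 (A09, 892407 to 894937, plus strand) had the largest reversal by the smaller of its differences. Its FPKM was 42.2, 58.0, 47.4, 57.2 and 39.4 in water at 30 min and 261, 465 and 294 in flg22. At 180 min water ranged from 18.4 to 51.6 (median 27.7), and flg22 stood at 4.54, 2.58 and 4.73. The flg22 libraries thus lay above all water libraries at 30 min and below all of them at 180 min, with differences of 2.75 ± 0.32 (SE) and -2.59 ± 0.31. With chitin the same gene reached 279, 301 and 225 at 30 min and 8.74, 15.0 and 27.4 at 180 min. Chitin at 180 min overlapped water, at a difference of -0.83 ± 0.31 (adjusted p = 0.027, less than 2-fold), and the fall from chitin 30 to chitin 180 min was -4.03 ± 0.35 (adjusted p = 2.9e-08).

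Bra013678 (A01, 7084076 to 7086592) and Bra037283 (A09, 5168194 to 5169176) came next. Bra013678 was at 166, 198 and 225 FPKM with flg22 at 30 min against 18.4 to 49.6 in water, and at 5.58, 3.85 and 3.68 at 180 min against 12.3 to 33.7. Bra037283 was at 98.9, 161 and 251 at 30 min against 11.6 to 23.0, and at 2.71, 1.96 and 2.04 at 180 min against 7.46 to 28.0. Neither gene's flg22 libraries overlapped water at either time. Chitin raised both at 30 min, by 3.22 ± 0.35 for Bra013678 and 3.19 ± 0.40 for Bra037283 (adjusted p = 2.1e-07 and 1.5e-06). At 180 min their chitin libraries, at 16.7, 29.7 and 53.1 and at 6.90, 11.6 and 16.3, overlapped water (differences of 0.33 ± 0.34 and -0.31 ± 0.39, adjusted p = 0.43 and 0.53).

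**Figure D2:**
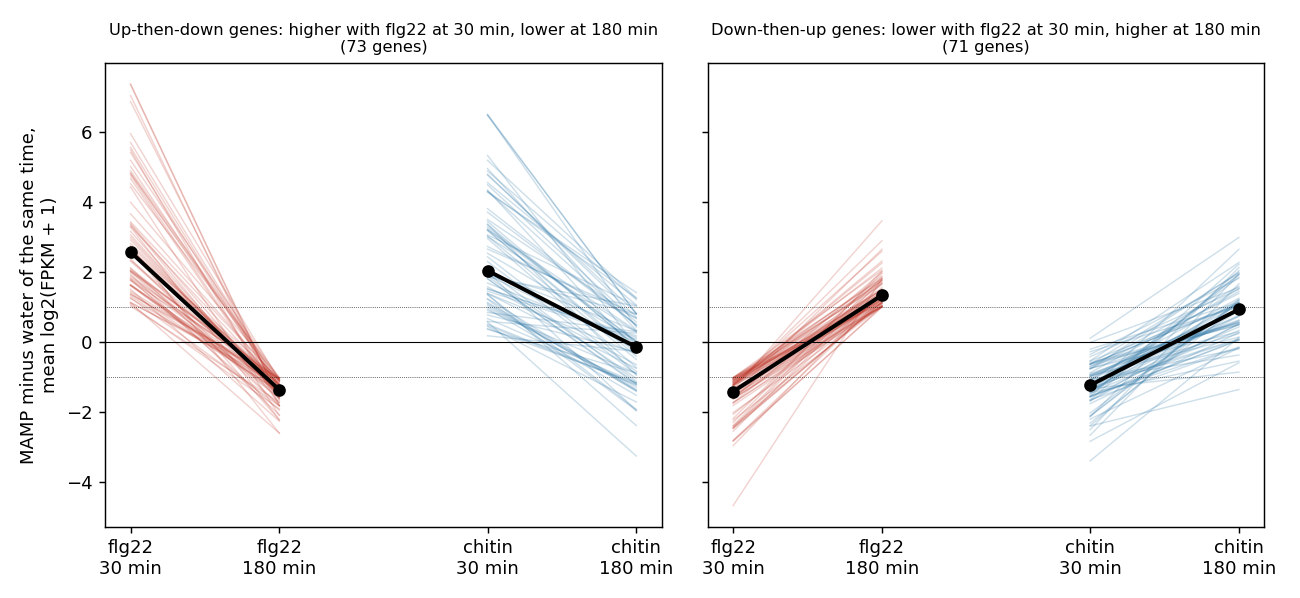
Difference of flg22 (red) and chitin (blue) from water of the same time, in mean log2(FPKM + 1), for the 73 up-then-down genes (left) and 71 down-then-up genes (right). Each thin line is 1 gene from 30 to 180 min, black points are medians and dotted lines mark the 2-fold limits of the rule; the black chitin line goes from 2.05 to -0.13 on the left and from -1.22 to 0.94 on the right.

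The 6 chitin libraries chose no gene, so their change over time is the contrast whose libraries did not enter the rule. It is not fully independent of the rule. The fit shares its error over all 23 libraries, and deviations of chitin and water correlated within a replicate number. From 30 to 180 min of chitin 66 of the 73 up-then-down genes were called lower (12.1% of all tested genes were), and none higher. None rose at an unadjusted p under 0.05 either, which is again limma's test. The median change was -2.96 (range -5.91 to 0.74), and every chitin library at 180 min lay below every one at 30 min in 67 genes (21.8% of tested genes). Every one lay above in 1 gene (43.8%). After median-ratio scaling 68 were called lower, at a median of -3.35.

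Against water the chitin comparisons use the water libraries that also chose the genes, so their counts are not independent of the rule. At 30 min 59 of 73 were called higher with chitin (8.16% of tested genes), none lower, with a median of 2.05 (range 0.19 to 6.51), and in 58 every chitin library lay above every water library (10.3%). At 180 min the genes spread to both sides of water: 19 were called lower (13.6% of tested genes), 7 higher (9.1%) and 47 were not called, with a median of -0.13 (range -3.25 to 1.42), close to the median of -0.12 of all tested genes. Every chitin library lay below every water library in 23 (28.9%). Of the 59, 13 were called lower at 180 min, 7 were still higher and 39 were not called. Of the 1990 tested genes called higher with chitin at 30 min, 1.16% were called lower at 180 min, 53.3% were still higher and 45.6% were not called. Of the other 14, 6 were called lower at 180 min only and 8 at neither time. Among the 19970 tested genes not called with chitin at 30 min, 12.5% were called lower at 180 min and 81.9% were not called.

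**Figure D3:**
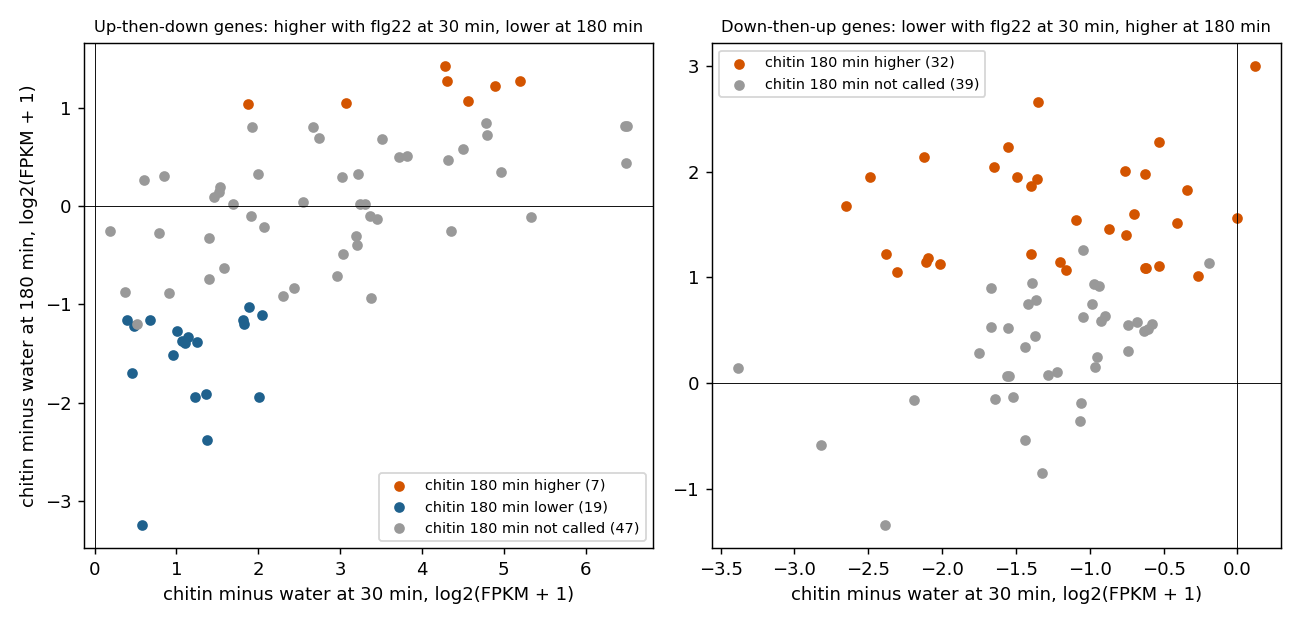
Chitin minus water at 30 min (x axis) against chitin minus water at 180 min (y axis), both fitted differences in log2(FPKM + 1), 1 point per gene, coloured by the call at 180 min. The 7 orange up-then-down genes on the left lie at 1.87 to 5.20 on the x axis, and on the right no gene is called lower at 180 min.

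Bra028639 (A02, 1354513 to 1355588) and Bra038205 (A01, 20824385 to 20825638) were among the 13 that chitin, too, turned over. Bra028639 stood at 10.6, 16.4, 29.5, 9.53 and 9.84 FPKM in water at 30 min, 55.4, 105 and 22.0 in flg22 and 30.6, 41.8 and 40.6 in chitin. At 180 min it was at 6.41 to 19.7 in water (median 13.5), 1.15, 6.10 and 2.37 in flg22 and 0.557, 2.26 and 3.06 in chitin. The chitin libraries did not overlap water at either time, while 1 flg22 library at 30 min did. The chitin differences were 1.38 ± 0.47 (adjusted p = 0.014) and -2.37 ± 0.45 (adjusted p = 0.00017). Bra038205 went from 29.0, 88.9 and 42.4 FPKM in chitin at 30 min to 2.14, 3.35 and 5.24 at 180 min, with water at 9.11 to 18.6 and 6.05 to 12.5. Its chitin difference at 180 min was -1.19 ± 0.29 (adjusted p = 0.0015), beside -1.81 ± 0.29 for flg22.

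Outside the named-gene rule, 3 genes are given because their chitin values stood out once seen. Bra030868 had the lowest chitin difference at 180 min among the 73, -3.25 ± 0.34, beside -2.59 ± 0.34 with flg22, although chitin at 30 min did not call it (0.58 ± 0.35, adjusted p = 0.15). Bra033104 had small errors and turned over with either MAMP: 2.00 ± 0.14 (flg22) and 2.05 ± 0.14 (chitin) at 30 min, -1.59 ± 0.13 and -1.11 ± 0.13 at 180 min. Bra028379 fell by 4.84 ± 0.27 over the chitin interval (adjusted p = 3.1e-11), from a chitin difference of 2.01 ± 0.24 at 30 min to -1.94 ± 0.23 at 180 min.

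The 7 genes still higher with chitin at 180 min, a share of the 73 near that of all tested genes (9.1%), were Bra018710, Bra013205, Bra013732, Bra003115, Bra019320, Bra007328 and Bra003114. Of these, 6 lie outside the named-gene rule and are described because of this class. In Bra013205 (A03, 19915424 to 19916101) chitin stood at 477, 464 and 453 FPKM at 30 min, with water at 8.86 to 17.1. At 180 min chitin was at 23.8, 34.1 and 56.6, water at 6.13 to 37.0 (median 12.9) and flg22 at 6.85, 4.29 and 4.12. The gene therefore fell with chitin (-3.66 ± 0.42, adjusted p = 7.7e-07) and was still above water at 180 min by 1.27 ± 0.36 (adjusted p = 0.0057), though its lowest chitin libraries overlapped water. Bra003114 and Bra003115 are neighbours on A10 (5089286 to 5089856 and 5081019 to 5081589) with chitin differences at 180 min of 1.42 ± 0.34 and 1.27 ± 0.33 against flg22 differences of -1.08 ± 0.34 and -1.22 ± 0.33. None of the 73 had every chitin library above every water library at 180 min (20.1% of tested genes did), and the number called higher was 4 in place of 7 without chitin replicate 3 of that time or without water library 3-s19.

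The largest changes over the chitin interval were those of Bra013815, Bra022607 and Bra022606. Bra013815 (A01, 7907694 to 7908641) stood at 617, 889 and 346 FPKM at 30 min of chitin and 5.50, 10.9 and 10.4 at 180 min, a change of -5.91 ± 0.55 (adjusted p = 6.4e-08). Its water range was 7.76 to 37.3 at 30 min and 4.91 to 23.4 at 180 min, so chitin had returned into the water range, whereas flg22 went from 1408, 1995 and 1669 to 6.66, 1.51 and 1.15. Bra022605, Bra022606 and Bra022607 lie together on the minus strand of A02 (7555442 to 7570330). In Bra022607 flg22 gave 997, 758 and 714 FPKM at 30 min and 6.80, 1.53 and 0.366 at 180 min, and chitin 685, 568 and 441, then 8.50, 12.4 and 20.3. Water was at 3.66 to 8.86 and at 3.71 to 23.2, so that both MAMPs overlapped water at 180 min, and replicate 1 was the highest flg22 library there. Bra022605 and Bra022606 differed by at most 0.11 (log2) in any library, and reads may have been divided between near-identical copies, so that they may be 1 measurement.

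For 7 up-then-down genes no fall was called over the chitin interval. Bra016103 (A07, 22687335 to 22689388) was at 12.7, 10.8 and 7.56 FPKM in chitin at 30 min and 15.4, 18.4 and 17.9 at 180 min (0.71 ± 0.42, adjusted p = 0.15), while water was at 2.49 to 9.40 and then at 6.17 to 24.3. Bra018710 (A06, 2414200 to 2414983) kept 21.6, 56.2 and 86.3 FPKM in chitin at 180 min after 62.4, 93.4 and 92.2 at 30 min (-0.77 ± 0.48, adjusted p = 0.17), while flg22 had 6.37, 8.88 and 6.97. The test called no change over time in either gene, although in Bra016103 every chitin library at 180 min lay above every one at 30 min. Bra020453 (A02, 5836040 to 5836603) met the rule through values listed at 0: water at 30 min was 0, 0, 5.98, 10.1 and 8.51, flg22 at 180 min 7.15, 7.23 and 0, and chitin at 30 min 0, 10.2 and 5.99. All its other libraries lay between 4.79 and 12.2, and no fold is given for it.

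**Figure D4:**
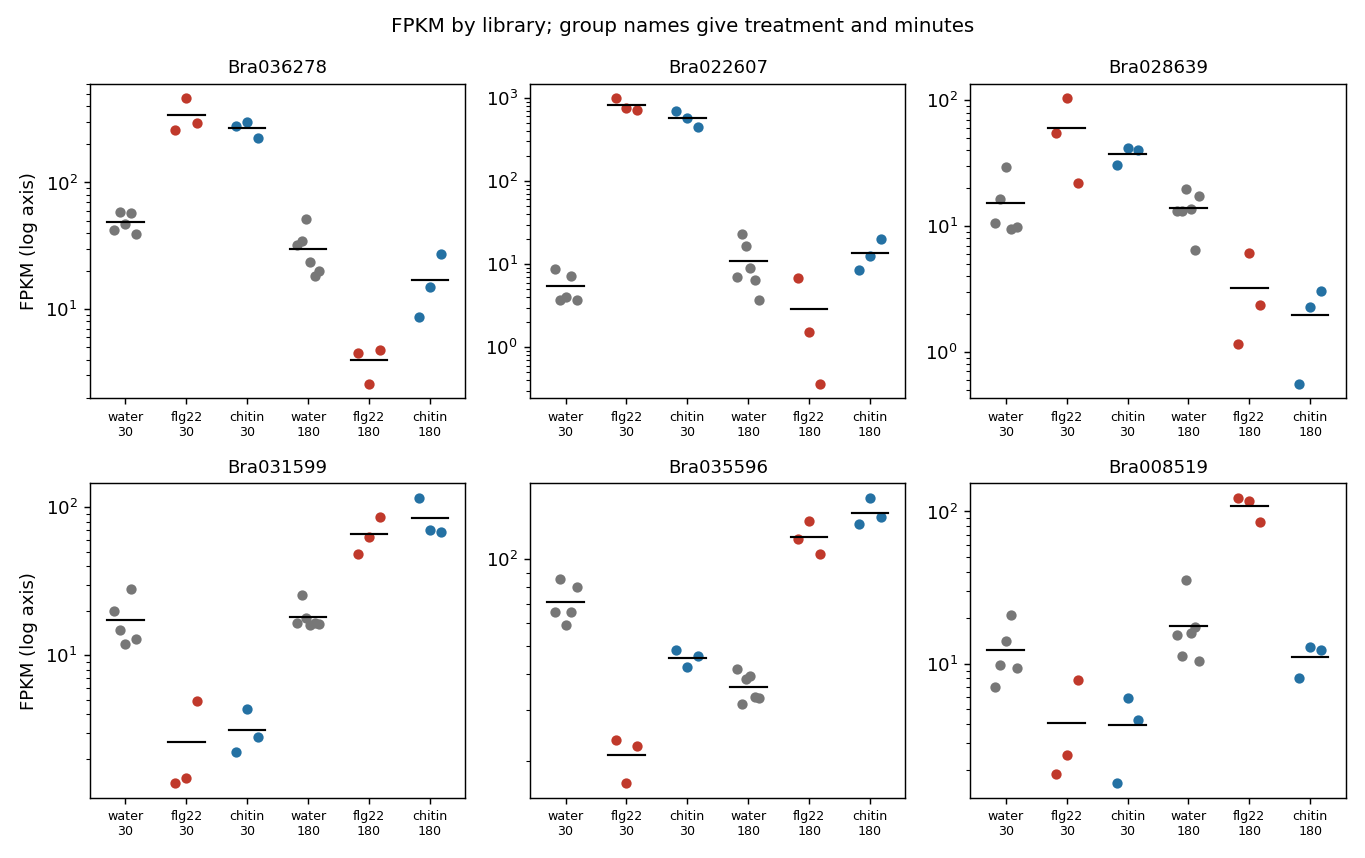
FPKM (log axis) in each of the 23 libraries for 6 members, 1 point per library and a line at the mean of each group, with the treatment and minutes below. The upper row holds up-then-down genes and the lower row down-then-up genes; at 180 min chitin is at 0.557 to 3.06 in Bra028639 and 68.1 to 116 in Bra031599, outside the water range, and at 8.00 to 12.9 in Bra008519, overlapping it.

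The down-then-up genes had smaller early differences. Their flg22 difference from water had a median of -1.40 at 30 min (range -4.66 to -1.01) and 1.35 at 180 min (range 1.01 to 3.47). The early median lay below that of all tested genes (-0.47), and after scaling it was -0.95. As a description, 64 of 71 were called lower at 30 min (15.7% of tested genes) and 67 higher at 180 min (6.53%). The water difference between the times, held under 1.5 by the rule, had a median of -0.25 (range -1.41 to 1.38).

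Bra039909 (A07, 1697007 to 1697333) had the largest reversal by the smaller of its differences. Its FPKM was 24.6, 12.0, 21.7, 28.9 and 9.43 in water at 30 min, 5.32, 1.73 and 2.32 in flg22 and 6.36, 2.43 and 2.39 in chitin. At 180 min water ranged from 8.23 to 40.9 (median 18.7), flg22 was at 72.6, 79.9 and 86.5 and chitin at 55.4, 44.4 and 34.0. Both MAMPs lay below water at 30 min, and at 180 min flg22 lay above it. There 1 chitin library overlapped 1 water library, 3-s19 (40.9). The chitin differences were -2.09 ± 0.41 (adjusted p = 0.00025) and 1.19 ± 0.40 (adjusted p = 0.016), beside -2.29 ± 0.41 and 2.03 ± 0.40 with flg22. Bra004314 (A07, 21209590 to 21209832) and Bra002319 (A10, 10395099 to 10395557) behaved alike. Bra004314 went from 12.3, 13.0 and 8.41 FPKM in chitin to 276, 254 and 163, and Bra002319 from 2.39, 0.429 and 2.70 to 25.1, 18.9 and 10.7. In flg22 they reached 375, 391 and 372, and 27.6, 24.7 and 37.3.

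From 30 to 180 min of chitin, in libraries the rule did not use, 53 of the 71 were called higher (16.8% of all tested genes were) and none lower, with none lower at an unadjusted p under 0.05 in limma's test. The median change was 1.99 (range -0.16 to 4.83), against 0.27 for all tested genes, and every library at 180 min lay above every one at 30 min in 56 (43.8% of tested genes). After median-ratio scaling 48 were called higher, at a median of 1.68.

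Against water, with the water libraries shared with the rule, 41 of 71 were called lower with chitin at 30 min (9.94% of tested genes) and none higher. The median of -1.22 (range -3.38 to 0.12) stands beside -0.46 for all tested genes, and in 45 all chitin libraries lay below all water libraries, beside 44.7% of all tested genes. With scaled values 23 of the 71 were called lower, at a median of -0.75. At 180 min 32 were called higher (9.1% of tested genes) and none lower at 2-fold, while 2 were lower at an unadjusted p under 0.05 in limma's test. The median was 0.94 (range -1.35 to 3.00), and in 27 all chitin libraries lay above all water libraries (20.1%). Of the 41, 18 were called higher at 180 min and 23 were not called, and none was still lower. Of the 2424 tested genes called lower with chitin at 30 min, 1.77% were called higher, 65.7% were not called and 32.5% were still lower. Of the other 30, 14 were called higher at 180 min only and 16 at neither time. Among the 19970 tested genes not called with chitin at 30 min, 5.59% were called higher at 180 min and 81.9% were not called.

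**Figure D5:**
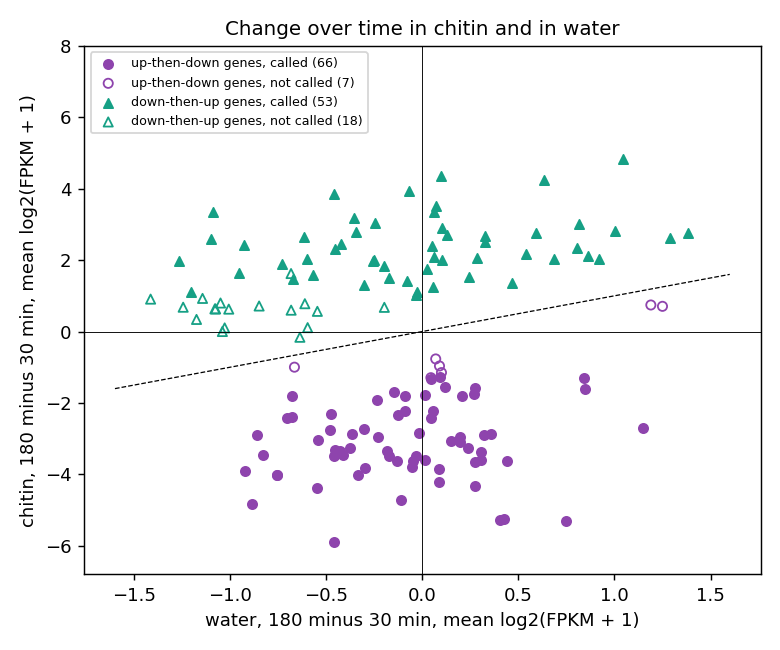
Change from 30 to 180 min in chitin (y axis) against the change in water (x axis), in mean log2(FPKM + 1), 1 point per gene, circles for up-then-down and triangles for down-then-up genes, filled where the chitin change was called. The dashed line marks equal change; 66 of 73 circles are filled below 0 and 53 of 71 triangles above 0, and the rule keeps all genes within 1.5 on the x axis.

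Bra031599 (A09, 37405363 to 37406480) and Bra026986 (A09, 36382716 to 36384997) were among the strongest in the chitin interval. Bra031599 was at 19.9, 14.8, 11.9, 28.0 and 12.8 FPKM in water at 30 min, 1.37, 1.49 and 4.96 in flg22 and 2.24, 4.37 and 2.80 in chitin. At 180 min it was at 15.9 to 25.5 in water (median 16.6), 48.1, 62.7 and 86.4 in flg22 and 116, 69.9 and 68.1 in chitin. No MAMP library overlapped water at either time. The rise over the chitin interval was 4.36 ± 0.34 (adjusted p = 5.6e-09), and the difference from water at 180 min was 2.14 ± 0.29 with chitin and 1.78 ± 0.29 with flg22. Bra026986 rose from 4.00, 1.08 and 2.43 FPKM in chitin to 165, 108 and 44.1 (4.83 ± 0.63, adjusted p = 3.5e-06), with flg22 at 128, 175 and 143 at 180 min and water at 6.64 to 37.4. At 30 min its water libraries spread from 2.77 to 18.1. Library 3-s21 (2.77) overlapped both MAMPs and 2-s13 (4.40) overlapped flg22, while 1-s1, 2-s9 and 3-s17 (12.9, 14.5 and 18.1) lay above all MAMP libraries.

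Bra035596 (A02, 6343349 to 6346426) separated the MAMPs at 30 min. Water was at 65.6, 85.6, 59.2, 65.7 and 80.4 FPKM, flg22 at 23.7, 16.7 and 22.5 and chitin at 48.3, 42.2 and 46.2. At 180 min water was at 31.6 to 41.7 (median 35.8), flg22 at 118, 136 and 104 and chitin at 132, 164 and 139.8. The chitin fall at 30 min was -0.62 ± 0.14 (adjusted p = 0.00099), less than 2-fold and close to the shift of all genes, and at 180 min chitin was higher by 1.98 ± 0.14 (adjusted p = 2.3e-09). Bra013111, given after its values were seen, had the highest chitin difference at 180 min among the 71 (3.00 ± 0.37, adjusted p = 1.7e-06) with none called at 30 min (0.12 ± 0.39, adjusted p = 0.80). Its flg22 differences were -1.40 ± 0.39 and 1.35 ± 0.37.

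Other genes were higher with flg22 at 180 min and nearer to water, or below it, with chitin. Bra001729 (A03, 18117731 to 18126862) was at 14.1 to 16.9 FPKM in flg22 at 180 min and 4.92, 7.15 and 3.42 in chitin, with water at 2.21 to 4.20. Bra034205 (A09, 1271960 to 1274617) was at 50.3, 43.4 and 45.2 in flg22 and 11.4, 15.4 and 9.27 in chitin, with water at 13.4 to 30.3. The chitin differences from water were 0.52 ± 0.19 (adjusted p = 0.028) for Bra001729 and -0.85 ± 0.26 (adjusted p = 0.0083) for Bra034205, both under 2-fold. Bra034205 also did not change over the chitin interval beyond its error (-0.16 ± 0.30, adjusted p = 0.65), nor did Bra033576 (0.10 ± 0.29, adjusted p = 0.78). Bra008519 (A02, 15155724 to 15157563), chosen after its values were seen, was at 123, 118 and 85.7 in flg22, 8.00, 12.9 and 12.3 in chitin and 10.3 to 35.4 in water.

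Chitin replicate 3 stood apart in 3 of the named genes. In Bra017975 (A06, 8922827 to 8923120) chitin at 30 min gave 1.40 and 1.79 FPKM in replicates 1 and 2 and 32.3 in replicate 3, inside the water range of 25.7 to 39.7, while flg22 gave 0.522, 0.527 and 0.0586. In Bra013579 the same libraries gave 52.5, 29.3 and 219, and in Bra019406 108, 94.9 and 355. At 180 min chitin replicate 3 was the lowest chitin library in these genes, at 22.2, 228 and 169, against 84.8 to 117, 515 to 663 and 427 to 503 in the others. Over all 71 genes, replicate 3 lay 0.05 above its group at 30 min and 0.24 below at 180 min, so the gap was far wider in these 3 genes. Bra019406 rose over the chitin interval by 1.10 ± 0.43 (adjusted p = 0.033), and this call was lost without chitin replicate 1 or 2 of either time (0.75 to 0.92).

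Bra032567 (A09, 38414654 to 38415541) was listed at 0 in 16 of the 23 libraries, among them all chitin libraries and all flg22 libraries at 30 min. Its other values were 21.8, 11.0 and 13.2 FPKM in water at 30 min, 11.7 and 20.2 in water at 180 min and 11.9 and 11.9 in flg22 at 180 min, and no fold is given. Bra003101 (A10, 5246822 to 5247452) and Bra004757 (A05, 1684278 to 1684908) each span 631 bp and differed by at most 0.014 (log2) in any library. Reads may have been divided between 2 near-identical copies, so that these 2 genes may be 1 measurement. Their values were 2.80 to 3.89 FPKM in flg22 at 30 min against 19.8 to 23.5 in water.

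At the threshold of the rule, Bra017823 and Bra028555 were just inside as up-then-down genes, with flg22 differences at 180 min of -1.01 and -1.001, and Bra038411 and Bra027741 just outside, with -0.999 and -0.98. Bra017744 (1.01 at 180 min) and Bra007213 (-1.01 at 30 min) were just inside as down-then-up genes, and Bra001220 (-0.997 at 30 min) and Bra039147 (0.997 at 180 min) just outside. The gaps between these genes and the threshold are smaller than the standard errors of the 4 members' values (0.26 to 0.44).

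Set side by side, the chitin and flg22 libraries overlapped in fewer members at 180 than at 30 min, as they also did over all tested genes. This is a description because the flg22 libraries chose the genes. In 46 of the 73 up-then-down genes every chitin library at 180 min lay above every flg22 library (14.4% of tested genes), and in 2 below (27.3%). In 40 of the 71 down-then-up genes every chitin library lay below every flg22 library (27.3% of tested genes), and in 3 above (14.4%). At 30 min 17 up-then-down genes had all chitin libraries below flg22 (7.51% of tested genes) and 4 above (9.28%). In the down-then-up genes 13 lay above (9.28%) and 1 below (7.51%).

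The rule did not use gene length or position. The median genomic span was 948 bp for up-then-down genes and 1452 bp for down-then-up genes, against 1720 bp for all tested genes, and 53.4%, 35.2% and 23.0% were under 1000 bp. The level and the spread between libraries are tied to the rule and are given as a description: the median FPKM was 13.4 and 15.5, against 9.01, and the median SD within a condition 0.52 and 0.45, against 0.26 (log2). Of the up-then-down genes 9 had another within 25000 bp (12.3%), while 1.45% of tested genes had one of them that near. The groups are Bra022605 to Bra022607 on A02, Bra014665 and Bra014666 on A04, Bra013677 and Bra013678 on A01, and Bra003114 and Bra003115 on A10. Of the down-then-up genes 2 did (2.82%, against 1.46%), Bra034205 and Bra034207 on A09. Of the up-then-down genes 15 lay on A01 (20.5%, against 9.49% of tested genes), 12 on A02 (16.4%, against 9.12%) and 10 on A09 (13.7%, against 14.2%).

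None of the 12 listed homologs of pattern-recognition receptors met the rule. Of the 9 tested, 2 were called higher with flg22 at 30 min (9.55% of all tested genes), the LysM kinase homologs CERK1 (Bra031293) and LYK5 (Bra021861). At 180 min 3 were called higher with flg22 (6.53%), and none was called lower at either time. With chitin 2 were called higher at 30 min (8.16% of tested genes), and 5 higher (9.1%) and 1 lower (13.6%) at 180 min. BraFLS2 (Bra017563), the flagellin receptor homolog, differed from water by -0.41 (adjusted p = 0.17) at 30 min and 0.016 (adjusted p = 0.97) at 180 min of flg22, the first close to the shift of all genes. LYK5 was at 4.24 and then -0.16 with flg22, and stayed above water with chitin at 180 min (1.74, adjusted p = 1.1e-05). The other 11 genes that the study names by identifier included none of the members.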

How the data were processed

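RNA-Seq libraries were made from leaf disc mRNA with a stranded kit. Reads were trimmed with Trimmomatic (0.36), mapped with HISAT2 to the reference genome of B. rapa (chromosome v1.5) and assembled with StringTie (2.0). The authors deposited FPKM values (fragments relative to gene length and library size), TPM values and a coverage signal for 41020 genes in each of 23 libraries; the read counts behind their DESeq2 calls were not used here. Coverage served only for depth and TPM only as an alternative.

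Genes were chosen on condition means of log2(FPKM + 1). Tests used limma (3.58.1, R 4.3.3) with a mean-variance trend on log2(FPKM + 1), 1 coefficient per condition, for the 24384 genes that reached an FPKM of 1 in 3 or more libraries, with Benjamini-Hochberg adjustment over all of them. A call needed an adjusted p under 0.05 and a difference of at least 1. All water libraries of a time served as controls, since the study's separate control sets for chitin and flg22 are not named in the labels. The order of the sample numbers, which would assign most of them, was not used in the rule or the tests. The fit was tested on simulated data.

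The members and lists were chosen with earlier results of these data known. Named genes in each direction are the 10 with the largest smaller flg22 difference, the 3 lowest and 3 highest changes over the chitin interval, and the 2 nearest genes on each side of the threshold. Alternatives were another pseudocount, no filter, TPM, median-ratio scaling, other thresholds, condition medians, other uses of the water libraries, only the conditions compared, a replicate block, an unadjusted p and each library left out.

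Within a replicate number, deviations from the group means correlated between chitin and water. The correlations were 0.31 to 0.47 at 30 min and 0.15 to 0.51 at 180 min, all over 0.1. Between the chitin libraries of the 2 times they were 0.49, 0.0085 and 0.34 in replicates 1, 2 and 3, so 1 was under 0.1. The labels call the number a biological replicate and name no shared batch.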

Additional observations from a re-analysis of the deposited data

Results flagged for a closer look

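Among the 33 named genes, 66 groups of water libraries were searched for a library far from the others, of which chance gives about 5%, and 2 were found. Bra028639 was at 6.41 FPKM in water library 3-s19 at 180 min, with the other 5 at 13.1 to 19.7. Bra031599 was at 25.5 FPKM in water library 1-s7 at 180 min, with the other 5 at 15.9 to 17.9. In 4 named genes all chitin libraries lay outside the water range, on opposite sides at the 2 times, and this difference between times was not tested. Over all members 16 of 73 up-then-down genes lay above and then below water in this way (0.439% of tested genes), and 18 of 71 down-then-up genes below and then above (4.41%). For the named genes the chitin differences at 30 and 180 min were 1.82 and -1.19 in Bra038205, 1.38 and -2.37 in Bra028639, -2.12 and 2.14 in Bra031599, and -0.62 and 1.98 in Bra035596.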

How the results depend on the processing

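The membership depended on the processing. The chitin counts were taken within the same 73 and 71 genes under every setting, so their changes cannot be compared with those of the membership. With a pseudocount of 0.1 the rule gave 156 up-then-down and 143 down-then-up genes (71 and 69 of the original ones among them), and at a threshold of 1.5 it gave 23 and 10. Median-ratio scaling gave 29 down-then-up genes, and taking 1 water library per replicate number gave 42 to 150 over 32 choices. Leaving out 1 library at a time gave 58 to 93 up-then-down genes and 58 to 96 down-then-up genes. With 1 library left out at a time, the counts called over the chitin interval were 62 to 67 and 50 to 56. Those at 30 min against water were 57 to 62 and 36 to 45. Those at 180 min were 13 to 23 lower and 4 to 10 higher up-then-down genes, and 25 to 33 higher down-then-up genes. At 180 min 0 to 1 down-then-up gene was called lower (1 without chitin replicate 2). Under median-ratio scaling 68 and 48 genes were called over the chitin interval, and 66 and 23 with chitin at 30 min. At 180 min 36 down-then-up genes were then called higher. With a pseudocount of 0.1, 47 down-then-up genes were called lower with chitin at 30 min. The last counts of higher up-then-down and lower down-then-up genes at 180 min were added after the data were seen. With a replicate block 67 and 53 genes were called over the chitin interval, no count moved by over 1.5 times and no named gene's call changed. For 33 named genes, 292 of 297 alternative values of the change over the chitin interval kept direction and call, and the other 5 were all of Bra019406 (0.71 under scaling). Of the 33, 27 were called in the main fit, and for the rest keeping the call means staying not called. The labels do not name which water libraries served which MAMP, and the rule and the tests did not use the order of the sample numbers to assign them. No read depth per gene was used, so precision rests on 3 to 6 libraries per condition.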
